A study of Canis lupus familiaris with 13 samples.

Results

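Ion channel genes were examined in dog heart tissue. They were all genes with a probe set that carried a single array symbol beginning with KCN (potassium channels), with CACNA, CACNB or CACNG (voltage-gated calcium channels and their subunits), with HCN (pacemaker channels), or with SCN followed by a number and A or B (sodium channels). The choice used symbols and no measured value. It found 33 genes on 57 probe sets, of 6540 genes that had a single symbol among 23836 probe sets. Each gene was represented by its probe set of highest mean signal over the 13 arrays, and 13 of the genes had more than 1 probe set. Messenger RNA was measured with 1 Affymetrix array per sample in 4 groups. P1, P4 and P9 were the 3 mongrel controls, K, L and R were 3 Dobermans with DCM, numbers 1 to 4 were 4 Boxers with DCM, and LV01, LV02 and LV04 were 3 mongrels that had been paced. DCM, dilated cardiomyopathy, leaves the heart chambers widened and weak in contraction. In paced animals an implanted electrode sets the heart rate, and sustained fast pacing is an established way to produce heart failure. The letters LV in the names of the paced samples are not explained in the labels, and no label stated a heart chamber, wall layer, age, sex, drug treatment, pacing rate or pacing time. No healthy Doberman or Boxer was measured, so breed and disease cannot be told apart in a comparison of either breed with the controls. Nothing in the labels says that the named samples came from separate dogs, and p-values then reflect only how these samples vary, which may be technical variation.

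The heartbeat is shaped by channels that open in turn. Sodium channels carry the fast upstroke, L-type calcium channels carry the plateau current that triggers contraction, and several potassium currents, among them the transient outward and the delayed rectifier currents, bring the cell back to rest. Inward rectifiers hold the resting potential, and auxiliary subunits set how many pores reach the membrane and how fast they open and close. Failing hearts are known for a prolonged action potential with reduced repolarising potassium currents, and Boxers and Dobermans with cardiomyopathy are known for ventricular arrhythmias. In tissue made of several cell types, fewer cells of a type and less RNA per cell cannot be told apart, and channels of vessels, nerves and immune cells are measured together with those of muscle cells.

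Dobermans L and R stood apart in RNA quality, and L, R and the paced arrays stood apart in signal level. The ratio of 3-prime to 5-prime GAPDH control signal, which rises as RNA degrades, was 2.10 in L and 3.62 in R, 1.08 in K, and between 0.967 and 1.09 on the other arrays. The median signal was 234 in L, 219.6 in R, 160.3 in K and 208 to 219 in the paced mongrels, against 142.5 to 146 in the controls and 132 to 146 in the Boxers. An array's mean correlation with its own group lay between 0.789 and 0.844 for Dobermans, against 0.947 to 0.969 for the rest. The lowest was that of K, whose group is L and R. Array weights, which give noisy arrays less say, were 0.142 for K, 0.313 for L and 0.635 for R. On the other arrays they were 0.98 to 2.07. Each Doberman call of a tested channel gene is therefore given with and without L and R; without them, K is a lone sample assumed to vary like the other groups. The signals of 11 markers of heart muscle cells summed to 211340 to 308510 in the controls, 231930 to 476260 in the Dobermans, 215050 to 243120 in the Boxers and 186740 to 209840 in the paced mongrels. Of the 11, 5 were higher and 1 lower in the Dobermans than in the Boxers, beside 16.8% and 17.4% of all tested genes. Against the paced mongrels 8 were higher, beside 13.6% of all tested genes. With quantile normalization, 0 were higher and 1 was lower in either comparison. With K alone, 0 passed against the Boxers in limma, where 1 had an unadjusted p under 0.05, and against the paced mongrels 0 were higher and 1 was lower. The part of this in the Doberman channel differences was not tested.

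Channel genes near background made up 39.4% of the 33, against 19.9% of all 6540 genes with the same choice of probe set. A probe set was called near background when its mean log2 value was under the 40th percentile of all probe sets, a signal of about 108, and such probe sets were not tested in the main analysis. This applied to 13 of the 33 genes: SCN2A, SCN2B and SCN8A among the sodium channels, CACNA1S among the calcium pores, CACNA2D3, CACNA2D4 and CACNG3 among the calcium auxiliary subunits, KCNB2, KCNH7 and KCNQ3 among the voltage-gated potassium pores, KCNJ6 among the inward rectifiers, and KCNMA1 and KCNN2 among the calcium-activated channels. The other 20 genes were tested: 1 sodium channel, 2 calcium pores, 2 calcium auxiliary subunits, 7 voltage-gated potassium pores, 3 of their auxiliary subunits, 3 inward rectifiers and 2 subunits of calcium-activated channels. KCNC1 (percentile 40.9) and KCNS3 (42.5) lay just above the level, and CACNA2D4 (29.9) and CACNA2D3 (28.8) were the nearest below it. The same 13 counted as near background with the level at the 30th percentile, and 17 did with the 50th. No gene with an HCN symbol was found by the rule, and channel genes missing from these lists were not analysed here. A probe set near background gives no evidence that its gene is silent.

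**Figure D1:**
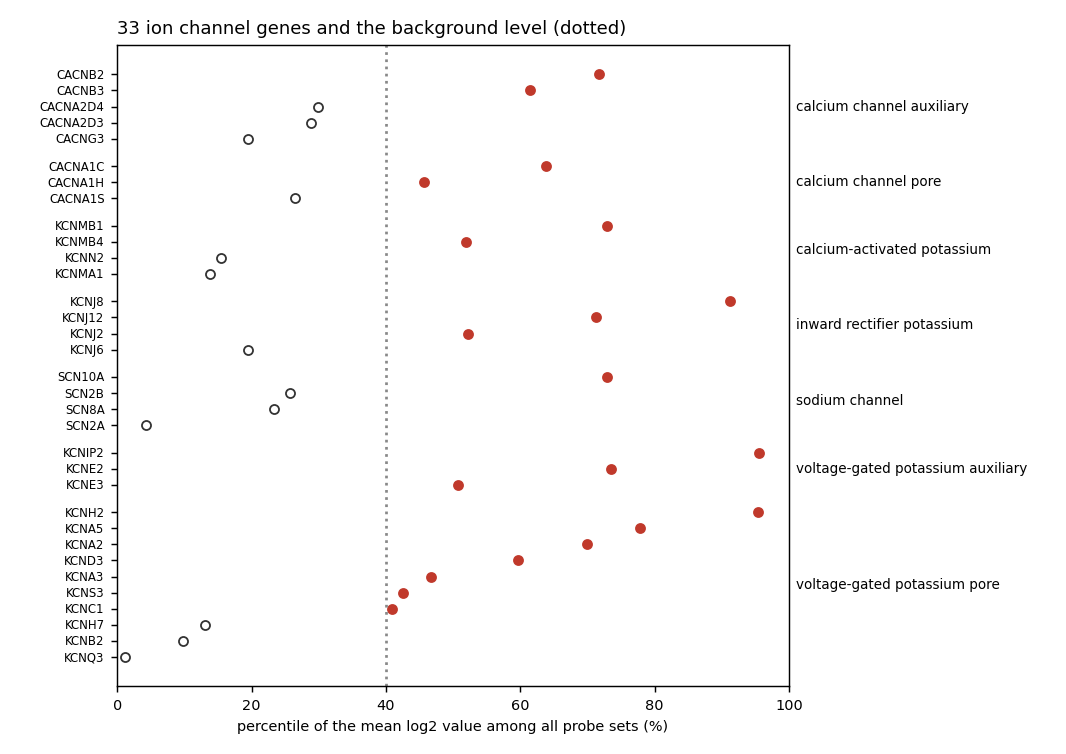
Percentile of the mean log2 value over 13 arrays (x axis, percent of 23836 probe sets) of each of the 33 genes, grouped by channel family, with the background level at the 40th percentile as a dotted line. The 20 filled points lie above the level and were tested; the 13 open points lie below it, and KCNIP2, KCNH2 and KCNJ8 lie farthest to the right.

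In the Dobermans, 7 of the 20 tested channel genes were higher than in the controls and 1 was lower. SCN10A, KCNH2, KCNMB1, KCNMB4, KCNA2, CACNB3 and KCNE3 rose by 1.65-fold to 3.61-fold. The lower one was KCNJ8, the pore of the ATP-sensitive potassium channel of vessels, at 0.342 of the control level at its brighter probe set, while its dimmer probe set was 5.57-fold higher. A gene passed when its limma adjusted p, over the 14302 tested probe sets, was under 0.05. Of all 5240 tested genes, 11.9% passed as higher and 14.1% as lower. The median log2 change was 0.608 over the 20 channel genes and 0.041 over all genes. With quantile normalization the split was 3 higher (SCN10A, KCNH2 and KCNMB1) and 2 lower (KCNJ8 and CACNB2), and with median centring it was 0 higher and the same 2 lower. Of all 14302 probe sets, 1075 were called higher and 1649 lower with quantile normalization, and 507 and 3115 with median centring. With only K in the Doberman group the channel calls were lost, as were most calls over all probe sets. The median log2 change was then 0.503 over the 20 channel genes and 0.044 over all 14302 probe sets. With only the Doberman and control arrays in the fit 0 passed and 9 had an unadjusted p under 0.05, beside 20 calls over all 14302 probe sets.

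In the paced mongrels, 5 of the 20 were higher than in the controls and 3 were lower. The 5 were the L-type calcium pore CACNA1C, its subunit CACNB3, SCN10A, KCNA3 and KCNMB1, with rises of 1.84-fold to 3.03-fold. The calcium channel subunit CACNB2 fell to 0.638 and KCNMB4 to 0.357 of the control level. KCNJ8 was at 0.398 of it at its brighter probe set and 2.5-fold higher at the dimmer one. Over all genes 5.19% passed as higher and 4.05% as lower, and the median log2 change was 0.126 over the channel genes and -0.042 over all genes. The split was 2 higher (CACNA1C and SCN10A) and 3 lower (CACNB2, KCNMB4 and CACNA1H) with quantile normalization, and 1 higher (CACNA1C) and 4 lower (those 3 and KCNJ8) with median centring. Of all 14302 probe sets, 633 were called higher and 848 lower with quantile normalization, and 530 and 3394 with median centring. Leaving out any 1 array of these groups left 2 to 4 of the 20 genes called, with 2 left without LV02 or without LV04.

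In the Boxers, 0 of the 20 channel genes passed against the controls in limma, and 4 had an unadjusted p under 0.05. Of all 5240 tested genes, 446 had an unadjusted p under 0.05. Over all genes 0.0191% passed as higher and 0.0382% as lower. The median log2 change was -0.265 over the channel genes and -0.017 over all genes. The smallest adjusted p belonged to CACNB2, whose 4 Boxer values all lay below the 3 control values. With array weights, which give noisy arrays less say, CACNB2 passed at an adjusted p of 0.0264 and was the only channel gene called.

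The breeds differed from each other in 11 channel genes. In the Dobermans 10 were higher than in the Boxers (SCN10A, KCNA2, KCNC1, KCNMB1, KCND3, KCNE2, KCNH2, KCNMB4, CACNB3 and CACNA1C) and KCNJ8 was lower at its brighter probe set, where 16.8% of all genes were higher and 17.4% lower. At the dimmer probe set KCNJ8 was 6.37-fold higher. The median log2 difference was 0.848 over the channel genes and 0.036 over all genes. The split became 6 higher and 1 lower with quantile normalization, where SCN10A, KCNA2, KCNC1, KCNMB1, KCND3 and KCNH2 stayed higher and KCNS3 was lower. It became 4 higher (SCN10A, KCNA2, KCNC1 and KCND3) and 2 lower (KCNJ8 and KCNS3) with median centring. Of all 14302 probe sets, 1550 were called higher and 2124 lower with quantile normalization, and 806 and 4299 with median centring. With K alone in the Doberman group the channel calls were lost, as were most calls over all probe sets. The median log2 difference was then 0.488 over the channel genes and 0.075 over all 14302 probe sets.

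Against the paced mongrels, the Dobermans were higher in 4 channel genes (KCNMB4, CACNA1H, KCNH2 and KCNA2) and lower in CACNA1C, beside 13.6% and 11.1% of all genes. The Boxers were higher than the paced mongrels in KCNMB4 and lower in 8 (CACNA1C, SCN10A, KCNE2, KCNC1, CACNB3, KCNMB1, KCNA3 and KCNJ2), beside 5.84% and 8.38% of all genes. Quantile normalization gave 5 higher and 1 lower for the Dobermans and 2 higher and 4 lower for the Boxers, and median centring gave 5 higher and 4 lower for the Boxers. Of all 14302 probe sets, quantile normalization called 2275 higher and 2085 lower for the Dobermans and 1123 and 809 for the Boxers. Median centring called 4741 higher and 662 lower for the Boxers. The comparisons share groups, and so the same control, Boxer or paced values enter several of them.

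**Figure D2:**
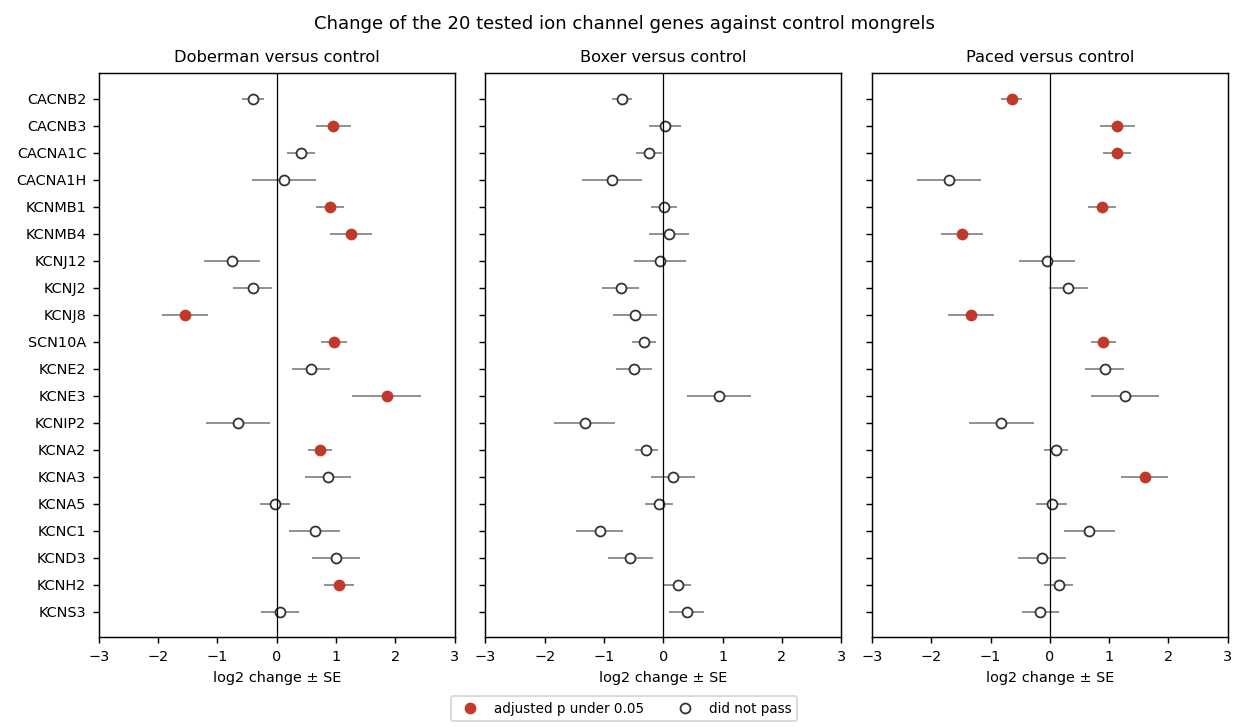
Change of the 20 tested ion channel genes against the control mongrels (x axis, log2 change with its SE) in the Dobermans, the Boxers and the paced mongrels, with genes in rows by family. Filled points passed an adjusted p of 0.05: there are 8 in the Dobermans, 0 in the Boxers and 8 in the paced mongrels.

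The level of a probe set went with its change, and 16 of the 20 channel genes lay in the bins of lower signal, which moved up. When the 14302 tested probe sets were ranked by mean signal and divided into 5 bins of equal size, the median log2 change of the Dobermans from the controls was 0.557, 0.471, 0.199, -0.052 and -0.203 from the lowest to the highest bin. In the paced mongrels it was 0.48, 0.328, 0.123, -0.066 and -0.183, and in the Boxers it stayed between -0.074 and 0.008. Of the channel genes, 6 lay in the lowest bin, 4 in the second, 6 in the third, KCNA5 in the fourth, and KCNH2, KCNIP2 and KCNJ8 in the highest. In the lowest 3 bins 16.9%, 19.2% and 16.7% of probe sets were called higher in the Dobermans, and 17.2%, 13.5% and 7.72% in the paced mongrels. Quantile normalization brought the Doberman median over all tested probe sets from 0.193 to 0.02, and the paced median from 0.063 to -0.047. Median centring gave -0.247 and -0.446. The part of this general shift in the rises of the channel genes was not tested. The rise of KCNH2 in the Dobermans and the falls of KCNMB4 and CACNB2 in the paced mongrels ran against the median of their own bin. None of the 41 called values changed sign under either scaling.

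**Figure D3:**
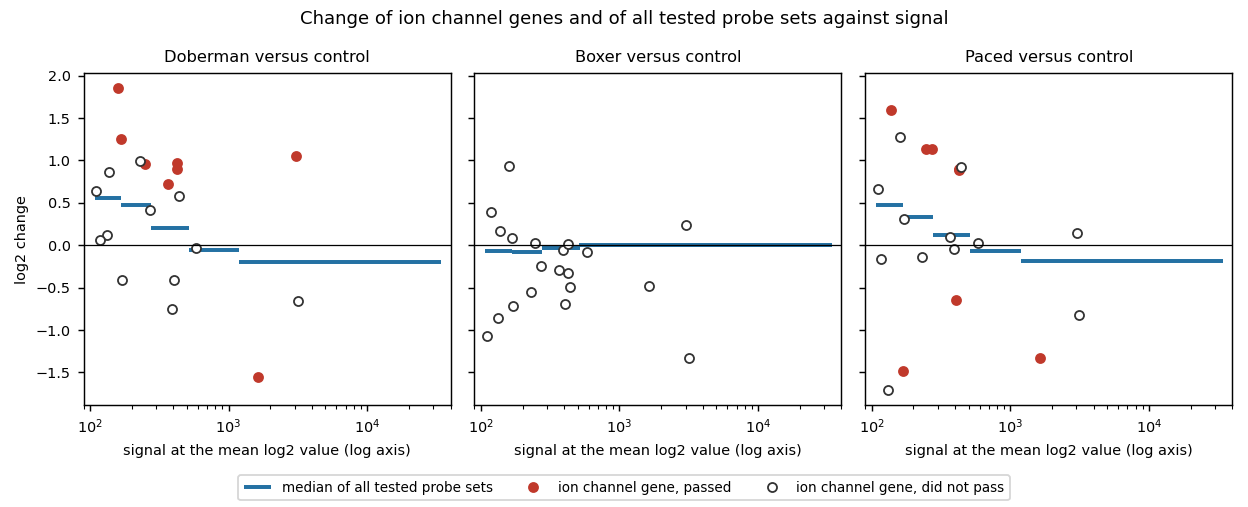
Log2 change (y axis) of the 20 tested ion channel genes against their signal level (x axis, log scale) in the comparisons with the controls; blue bars give the median change of all tested probe sets in each of 5 bins of signal. The bars fall from left to right in the Dobermans (0.557 to -0.203) and the paced mongrels (0.48 to -0.183) and stay near 0 in the Boxers.

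SCN10A encodes a sodium channel pore best known from sensory neurons. Its signals were 363, 345 and 307 in the controls, 551, 734 and 756 in the Dobermans, 240.3, 320.3, 212 and 305 in the Boxers and 636, 566 and 736 in the paced mongrels. Every Doberman and every paced value lay above every control and every Boxer value. The log2 change from the controls was 0.96 ± 0.21 (SE), adjusted p = 0.0112 in the Dobermans and 0.90 ± 0.21 (SE), adjusted p = 0.0167 in the paced mongrels. In the Boxers it was -0.33 ± 0.20, which did not pass (adjusted p = 0.787). The breeds differed by 1.29 ± 0.20 (SE), adjusted p = 0.00259, and the Boxers lay below the paced mongrels (log2 difference -1.22 ± 0.20 SE, adjusted p = 0.0019). The Doberman rise passed whichever single array was left out (0.88 to 1.11). Without L and R it was 0.68 (adjusted p = 0.194), and the breed difference was 1.01 (adjusted p = 0.063). The paced rise lost its call without P4, P9, LV01 or LV04, with values of 0.80 to 0.99. Quantile normalization kept both rises, at 0.85 (adjusted p = 0.0212) and 0.79 (adjusted p = 0.0323), and median centring gave 0.53 (adjusted p = 0.0649) and 0.39 (adjusted p = 0.148).

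CACNA1C, the pore of the L-type calcium channel, was highest in the paced mongrels. Its signals there were 532, 525 and 464, against 267, 179 and 228 in the controls, 224, 344 and 352 in the Dobermans and 159, 217, 181 and 188 in the Boxers. The 3 paced values lay above all 10 others, and K lay within the controls while L and R lay above them. The rise with pacing was 2.19-fold, a log2 change of 1.13 ± 0.23 (SE), adjusted p = 0.00848, and it passed whichever array was left out (0.99 to 1.26) and under quantile normalization and median centring, at 0.92 (adjusted p = 0.0147) and 0.62 (adjusted p = 0.0381). The Boxers lay below the paced mongrels (log2 difference -1.37 ± 0.22 SE, adjusted p = 0.00173), a call that every fit leaving out 1 array kept (-1.44 to -1.31). The Dobermans also lay below them (log2 difference -0.72 ± 0.23 SE, adjusted p = 0.0376). Without L and R this difference was -1.12 (adjusted p = 0.0173), and it lost its call without K, LV01, LV02 or LV04 (-0.83 to -0.52). Against the controls neither breed passed: the log2 change was 0.41 ± 0.23 in the Dobermans and -0.24 ± 0.22 in the Boxers (adjusted p = 0.188 and 0.878). The difference between the breeds, 0.65 ± 0.22 (SE), adjusted p = 0.0331, was lost without L, R or Boxer 1, 3 or 4 (0.55 to 0.85), and with K alone it was 0.25 (adjusted p = 0.604). Quantile normalization brought it to 0.23 (adjusted p = 0.385).

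The other 3 CACNA1C probe sets lay near background and did not agree. When all probe sets were tested without a filter, CACNA1C at its second probe set was higher in the paced mongrels (1.60 ± 0.52 SE, adjusted p = 0.0453), with signals of 207, 201 and 209 against 40.9, 81.9 and 54 in the controls. At the third it was lower (-1.06 ± 0.32 SE, adjusted p = 0.0337), with 37.6, 50.7 and 23.7 against 79.4, 85.4 and 118. The fourth did not pass (0.34 ± 0.23 SE, adjusted p = 0.324). With quantile normalization and no filter the second did not pass, at 1.08 (adjusted p = 0.152). The third still passed as lower in that setting, at -1.53 (adjusted p = 0.00882). In that unfiltered comparison 22.8% of the 9534 probe sets near background were called higher in the paced mongrels and 2.49% lower.

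CACNA1H forms the pore of a T-type calcium channel, a low-voltage channel known from the developing heart and the conduction system. The signals were 125, 235 and 325 in the controls, 312, 242 and 167 in the Dobermans, 146, 39, 93.1 and 243 in the Boxers and 112, 28.7 and 44.6 in the paced mongrels. All paced values lay below all control and Doberman values, and 2 of the 3 were under the background level. The paced log2 change from the controls, -1.71 ± 0.54 (SE), adjusted p = 0.055, missed the threshold. It passed with quantile normalization, -2.14 (adjusted p = 0.0266), with median centring, -2.22 (adjusted p = 0.0139), without the filter, -1.71 (adjusted p = 0.0424), with array weights, -1.55 (adjusted p = 0.0399), and without LV01. The Dobermans lay 3.55-fold above the paced mongrels (1.83 ± 0.54 SE, adjusted p = 0.027). That call was lost without L, LV02 or LV04 (1.50 to 2.26), and with K alone the difference was 2.23 (adjusted p = 0.0724). Where a mean lies under the background level, the size of a fold depends on the constant of 16 added before the log. The Boxer values spanned those of the paced and the control groups, and the Boxer change of -0.86 ± 0.51 did not pass (adjusted p = 0.769).

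The calcium channel beta subunits, which bring the pore to the membrane and alter its gating, moved in opposite directions. CACNB2 gave 516, 615 and 549 in the controls, 482, 412 and 366 in the Dobermans, 369, 335, 306 and 351 in the Boxers and 314, 382 and 359 in the paced mongrels. All 10 values of diseased and paced hearts lay below the lowest control. The fall passed in the paced mongrels only (-0.65 ± 0.18 SE, adjusted p = 0.0357), and the differences of the breeds from the paced mongrels, 0.24 ± 0.18 and -0.05 ± 0.17, did not pass (adjusted p = 0.355 and 0.88). It was -0.69 ± 0.17 (SE), adjusted p = 0.301 in the Boxers and -0.41 ± 0.18 (SE), adjusted p = 0.108 in the Dobermans. Each of the 6 fits without 1 array lost the paced call, with values of -0.71 to -0.57. Quantile normalization strengthened it to -0.85 (adjusted p = 0.0197) and gave -0.62 (adjusted p = 0.049) for the Dobermans, and median centring gave -1.16 (adjusted p = 0.00391) and -0.85 (adjusted p = 0.0166). Without L and R the Doberman change was -0.21 (adjusted p = 0.642).

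CACNB3 gave 177, 203 and 141 in the controls and 175, 206, 173 and 151 in the Boxers, against 274, 586 and 259.8 in the Dobermans and 483, 363 and 357 in the paced mongrels. The Doberman and paced values all lay above the control and Boxer values, and Doberman L was the highest of the 13. The log2 change was 0.95 ± 0.29 (SE), adjusted p = 0.0324 in the Dobermans and 1.14 ± 0.29 (SE), adjusted p = 0.0236 in the paced mongrels. The Doberman call was lost without P1, P4, P9 or L (0.59 to 1.15), and the paced call without P1, P9, LV01, LV02 or LV04 (1.00 to 1.25). Quantile normalization gave 0.63 (adjusted p = 0.147) and 0.83 (adjusted p = 0.103), so neither rise passed under that scaling. The Dobermans lay above the Boxers by 0.93 ± 0.27 (SE), adjusted p = 0.021, lost without L or Boxer 4 (0.56 to 1.13), and the Boxers lay below the paced mongrels (log2 difference -1.11 ± 0.27 SE, adjusted p = 0.0143), lost without LV01 (-1.18 to -0.97). For K by itself the change was 0.63 (adjusted p = 0.266) from the controls and 0.60 (adjusted p = 0.243) from the Boxers.

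**Figure D4:**
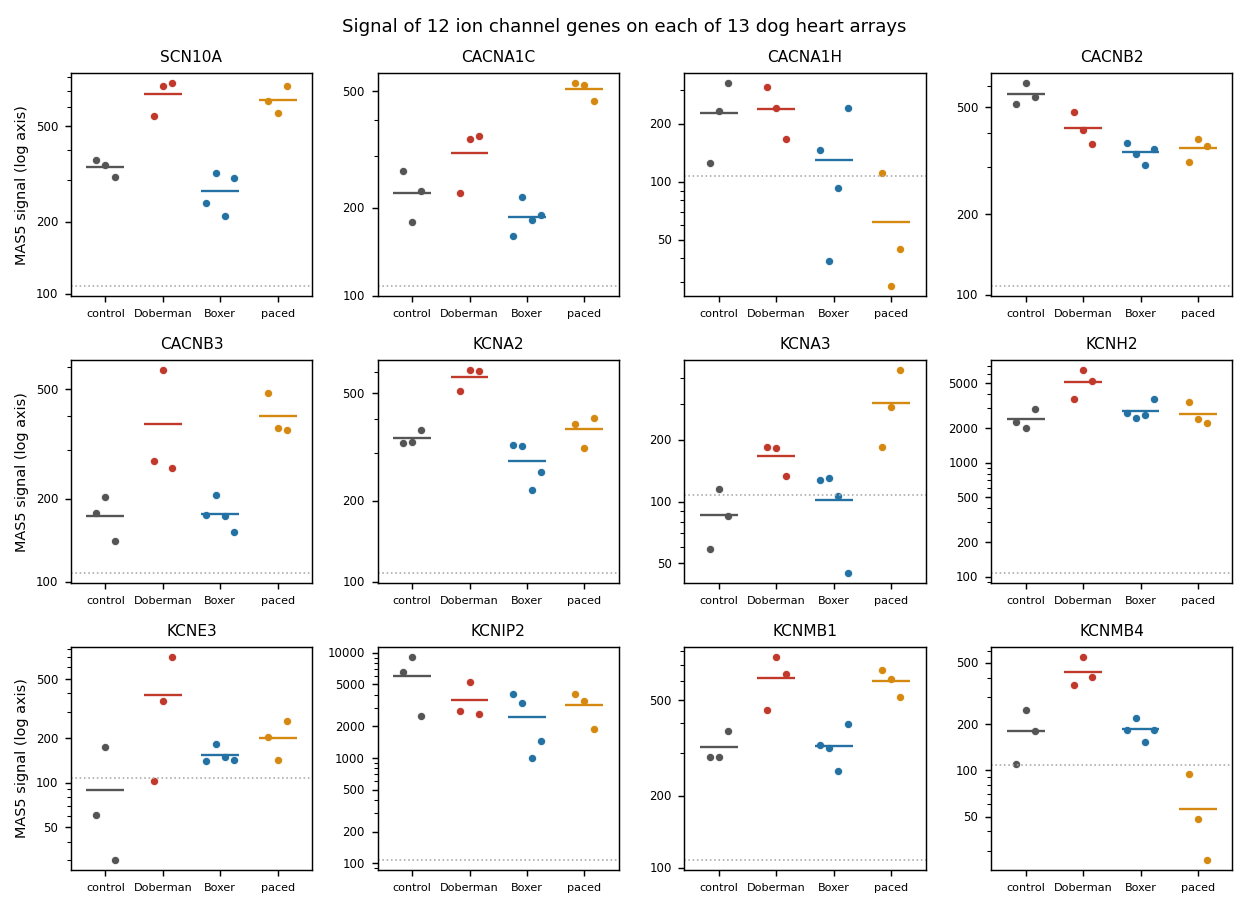
MAS5 signal (y axis, log scale that differs between panels) of 12 ion channel genes on each array; points are samples, short lines are group means, and the dotted line is the background level of about 108. SCN10A and CACNB3 are higher in the Dobermans and the paced mongrels than in the controls and Boxers, CACNA1C is highest in the paced mongrels, and KCNMB4 is highest in the Dobermans and lowest in the paced mongrels.

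KCNH2, the pore of the rapid delayed rectifier current that ends the plateau, was higher in the Dobermans than in all other groups. Its signals were 3606, 6474 and 5211 in the Dobermans, 2278, 2013 and 2955 in the controls, 2729.5, 2443, 2620.4 and 3642 in the Boxers and 3388, 2435 and 2242 in the paced mongrels. The Doberman values lay above every control and every paced value, and K lay just below Boxer 4. The rise was 2.07-fold over the controls (1.05 ± 0.25 SE, adjusted p = 0.0138), with differences of 0.81 ± 0.23 (SE), adjusted p = 0.0191 from the Boxers and 0.90 ± 0.25 (SE), adjusted p = 0.0194 from the paced mongrels. The call against the controls was lost without P4 or L (0.86 to 1.28), that against the Boxers without L or R (0.62 to 1.04), and that against the paced mongrels without L, LV02 or LV04 (0.71 to 1.13). Left with K, the 3 values were 0.59 (adjusted p = 0.286), 0.35 (adjusted p = 0.486) and 0.44 (adjusted p = 0.298). Quantile normalization kept the rise over the controls (1.20, adjusted p = 0.0137), while median centring gave 0.61 (adjusted p = 0.0676). At its probe set of highest signal KCNH2 did not pass in the paced mongrels (0.15 ± 0.25) or the Boxers (0.24 ± 0.23), with adjusted p of 0.731 and 0.884.

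The other probe sets of KCNH2 did not show the rise over all 3 Dobermans. With K alone the log2 change from the controls was 0.32 at the second, 1.07 at the third and 0.99 at the one near background. With the GAPDH ratio as a covariate the second gave 0.50 (adjusted p = 0.525). At the second, the Dobermans had 419.7, 188 and 34.8 and the controls 357, 348 and 299, a log2 change of -1.08 ± 0.54 (SE), adjusted p = 0.143. The values there ran downwards in the order of the GAPDH ratio, from K to L to R, and the part of RNA quality in this was not tested. At the third, the Doberman change was 0.25 ± 0.48 (SE), adjusted p = 0.705, and the Dobermans lay above the paced mongrels (1.68 ± 0.48 SE, adjusted p = 0.0233), a call lost without R or LV02 (1.20 to 2.11). With K alone that difference was 2.51 (adjusted p = 0.0162). The paced values at that probe set, 55.6, 15.7 and 90.6, all lay below the controls (149, 120.4 and 194) and did not pass (-1.43 ± 0.48 SE, adjusted p = 0.0677). This paced fall passed with quantile normalization, -1.88 (adjusted p = 0.0327), and with median centring, -1.94 (adjusted p = 0.0175). It also passed with the GAPDH ratio as a covariate, -1.48 (adjusted p = 0.043). Another KCNH2 probe set lay near background, with 104, 55.6 and 7.9 in the Dobermans, 34, 139.5 and 12.8 in the controls and 255, 164 and 219 in the paced mongrels. Without the filter KCNH2 was lower there in the Dobermans than in the paced mongrels (-1.93 ± 0.65 SE, adjusted p = 0.0413), opposite to the probe set of highest signal, and with K alone this was -0.90 (adjusted p = 0.458).

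KCNA2 and KCNA3 belong to the Shaker family of voltage-gated potassium pores, the former known mainly from neurons and the latter from lymphocytes and macrophages. KCNA2 gave 510, 609 and 605 in the Dobermans, 326, 330 and 366 in the controls, 322, 319.9, 219.8 and 255 in the Boxers and 386, 315 and 406 in the paced mongrels. The 3 Dobermans lay above all 10 other samples. The log2 difference was 0.72 ± 0.20 (SE), adjusted p = 0.0246 from the controls, 1.01 ± 0.19 (SE), adjusted p = 0.00446 from the Boxers and 0.62 ± 0.20 (SE), adjusted p = 0.0404 from the paced mongrels. The difference between the breeds passed whichever array was left out (0.91 to 1.09) and under both scalings, 0.79 (adjusted p = 0.012) with quantile normalization. The call against the controls was lost without P1, P4, L or R (0.68 to 0.81), and that against the paced mongrels without L, R, LV01, LV02 or LV04 (0.52 to 0.70). Left with K, the values were 0.56 (adjusted p = 0.275), 0.85 (adjusted p = 0.1) and 0.46 (adjusted p = 0.247). At its other tested probe set KCNA2 was 289.7, 440.2 and 554 in the Dobermans and 150.4, 107 and 204 in the controls, also a rise (1.38 ± 0.34 SE, adjusted p = 0.015), lost without P4 or R (1.17 to 1.63); with K alone it was 0.89 (adjusted p = 0.303). At that probe set the differences from the Boxers (0.75 ± 0.31) and the paced mongrels (0.72 ± 0.34) did not pass (adjusted p = 0.0763 and 0.128).

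KCNA3 gave 184, 288 and 437 in the paced mongrels and 58.8, 115 and 85.4 in the controls, with 185, 184 and 134 in the Dobermans and 128, 129.9, 107 and 44.9 in the Boxers. The paced and Doberman values all lay above the controls, and 2 of the 3 control values were under the background level. The paced rise was 3.03-fold (1.60 ± 0.39 SE, adjusted p = 0.0189), lost without P1, LV02 or LV04 (1.31 to 1.89). It fell short of the threshold with quantile normalization, 1.17 (adjusted p = 0.0878). The Boxers lay below the paced mongrels (log2 difference -1.43 ± 0.37 SE, adjusted p = 0.017), lost without LV02 or LV04 (-1.73 to -1.14) and with quantile normalization, -0.95 (adjusted p = 0.119). The Doberman change of 0.86 ± 0.39 did not pass (adjusted p = 0.108). Among lymphocyte markers, NKG7 was higher (2.37 ± 0.39, SE) and CD3E lower (-2.89 ± 0.30, SE) in the paced mongrels, of 4 tested markers, and CD8A was near background. The summed signal of the 5 lymphocyte markers was 1090 to 1345 in the paced mongrels and 619.7 to 882 in the controls. NKG7 was the largest part of each paced sum, with 746, 581 and 556, against 114, 107 and 102 in the controls. CD3D overlapped between these groups, IL2RG and CD8A lay above the controls, and CD3E lay below them. The part of lymphocytes in the rise of KCNA3 was not tested.

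KCNC1, a pore of fast-spiking neurons, lay close to the background level. The signals were 118, 129.8 and 96.7 in the controls, 216, 147 and 203 in the Dobermans, 128, 50.9, 22.4 and 23.6 in the Boxers and 199.5, 174 and 199 in the paced mongrels. Boxers 2, 3 and 4 were at or under 50.9, while Boxer 1 lay among the controls. The Boxers were lower than the Dobermans (Doberman over Boxer 1.71 ± 0.40 SE, adjusted p = 0.00902) and than the paced mongrels (-1.74 ± 0.40 SE, adjusted p = 0.0104), calls that no fit leaving out 1 array lost (1.48 to 2.11 and -2.14 to -1.51). With K alone the difference of the breeds was 1.90 (adjusted p = 0.109), and with quantile normalization the difference from the paced mongrels was -1.19 (adjusted p = 0.0669). Against the controls no group passed, with log2 changes of 0.64 ± 0.42, -1.07 ± 0.40 and 0.67 ± 0.42 in the Dobermans, Boxers and paced mongrels (adjusted p = 0.264, 0.562 and 0.322).

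KCND3, a pore of the transient outward current that shapes early repolarisation, separated the breeds at its probe set of highest signal. It gave 336, 794 and 369.5 in the Dobermans, 164, 179, 196 and 79.9 in the Boxers, 268, 137 and 303 in the controls and 138, 224 and 266 in the paced mongrels. Every Doberman lay above every other sample, and L was the highest of all. The Dobermans were 2.93-fold above the Boxers (1.55 ± 0.38 SE, adjusted p = 0.0108), lost only without L among the fits leaving out 1 array (1.17 to 1.77), and with K alone the difference was 1.11 (adjusted p = 0.231). The change from the controls did not pass in the Dobermans (1.00 ± 0.41 SE, adjusted p = 0.081), the Boxers (-0.56 ± 0.38 SE, adjusted p = 0.818) or the paced mongrels (-0.14 ± 0.41 SE, adjusted p = 0.853). The second KCND3 probe set gave 25.1, 406 and 124 in the Dobermans and 155, 164, 153 and 165 in the Boxers. The log2 difference was -0.38 ± 0.67 (SE), adjusted p = 0.664. With K alone the difference there was -2.09 from the Boxers and -2.40 from the paced mongrels. At the probe set of highest signal K alone gave 1.11 and 0.69, of opposite sign. The difference of the Dobermans from the paced mongrels at the probe set of highest signal, 1.13 ± 0.41 (SE), adjusted p = 0.0563, passed with quantile normalization, 1.36 (adjusted p = 0.0247), and with median centring, 1.20 (adjusted p = 0.0356).

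KCNA5, the pore of the ultra-rapid delayed rectifier current of the atrium, and KCNS3, a subunit that forms no channel by itself and modifies others, did not pass in any of the 6 comparisons. KCNA5 gave 598, 503 and 686 in the controls, 539, 583 and 609 in the Dobermans, 740, 515, 744 and 347 in the Boxers and 622, 621 and 568 in the paced mongrels. Its log2 changes from the controls were -0.04 ± 0.26, -0.07 ± 0.24 and 0.03 ± 0.26 in the Dobermans, Boxers and paced mongrels (adjusted p = 0.926, 0.982 and 0.956). KCNS3 ranged from 80.9 to 198.6 over the 13 samples, with changes of 0.06 ± 0.32, 0.40 ± 0.30 and -0.16 ± 0.32 (adjusted p = 0.9, 0.845 and 0.778). With quantile normalization KCNS3 was lower in the Dobermans than in the Boxers, -0.84 (adjusted p = 0.0358), and higher in the Boxers than in the paced mongrels, 1.14 (adjusted p = 0.0143). The third KCNA5 probe set, near background, gave 30.6, 80.7 and 54.2 in the paced mongrels and 12.6, 3.3 and 2.6 in the controls. Without the filter it was higher in the paced mongrels (1.65 ± 0.28 SE, adjusted p = 0.00193).

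KCNIP2, the calcium-binding subunit of the transient outward channel, varied widely within groups. Its signals were 6559, 9091 and 2512 in the controls, 2788, 5253 and 2614 in the Dobermans, 4078, 3299, 1005 and 1454 in the Boxers and 4092, 3488 and 1907 in the paced mongrels. Control P9 lay within the range of the diseased hearts, and P1 and P4 lay above every diseased or paced heart. The log2 change was -0.65 ± 0.55 in the Dobermans, -1.33 ± 0.51 in the Boxers and -0.82 ± 0.55 in the paced mongrels, and none passed (adjusted p = 0.37, 0.58 and 0.348). This probe set carries the suffix of Affymetrix for one that may match several transcripts. The second KCNIP2 probe set gave 1427, 2342 and 321 in the controls and 416, 216 and 103 in the Dobermans, with 551, 446, 125 and 138 in the Boxers and 549.7, 507 and 198 in the paced mongrels. P9 was again the low control, and the groups overlapped. The Doberman fall passed there (-2.19 ± 0.73 SE, adjusted p = 0.0423). It was lost without P1, P4, L or R (-3.01 to -1.61), and with K alone it was -1.28 (adjusted p = 0.53). The part of the place in the heart wall from which a sample was taken, which the labels did not give, was not tested.

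KCNE2 and KCNE3 are small single-span subunits that modify KCNH2 and other potassium pores. KCNE2 gave 362, 387 and 407 in the controls, 552, 932 and 383 in the Dobermans, 380.3, 357, 218 and 175 in the Boxers and 742, 673 and 824 in the paced mongrels. All paced values lay above all control and Boxer values. The Boxers were below the paced mongrels (log2 difference -1.41 ± 0.30 SE, adjusted p = 0.00727), which no fit leaving out 1 array lost (-1.57 to -1.22), and it kept its call with quantile normalization (-1.26, adjusted p = 0.0191). The Dobermans lay 2.1-fold above the Boxers (1.07 ± 0.30 SE, adjusted p = 0.0177), lost without L (0.74 to 1.36), and with K alone the difference was 0.99 (adjusted p = 0.141). Against the controls the paced change was 0.92 ± 0.32 (SE), adjusted p = 0.0766, the Doberman change 0.58 ± 0.32 (SE), adjusted p = 0.183 and the Boxer change -0.49 ± 0.30 (SE), adjusted p = 0.787, so none passed. With array weights the paced change passed, at 0.93 (adjusted p = 0.0202). The second KCNE2 probe set passed in none of these comparisons, with Boxer and paced log2 changes from the controls of 0.30 ± 0.28 and 0.45 ± 0.30 and a Boxer difference from the paced mongrels of -0.15 ± 0.28 (adjusted p = 0.884, 0.35 and 0.744).

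The array held 6 probe sets for KCNE2, and at all 6 every paced value lay above every control value. That pattern was met at 32% of all 23836 probe sets. The 4 KCNE2 probe sets near background showed the wider gaps: the third gave 356, 372 and 482 in the paced mongrels and 41.5, 17.8 and 103 in the controls, and the sixth 194, 144 and 214 and 20.4, 35.5 and 40.9. Without the filter the log2 changes at these 4 were 2.76 ± 0.58 (SE), adjusted p = 0.00611, then 1.90 ± 0.45 (SE), adjusted p = 0.0111, then 2.41 ± 0.48 (SE), adjusted p = 0.00446 and 2.06 ± 0.37 (SE), adjusted p = 0.00272. All probe sets near background shifted by a median of 0.533 in this comparison. With quantile normalization, where that median was 0.078, the 4 changes were 2.44 (adjusted p = 0.0184), 1.50 (adjusted p = 0.0249), 1.90 (adjusted p = 0.0128) and 1.53 (adjusted p = 0.0127). That setting was chosen after the data were seen. Probe sets 3 and 6 carry the suffix for possible cross-hybridisation. The Doberman and Boxer values at these 4 probe sets did not rise in this way: at each of the 4, every Doberman and Boxer value lay below every paced value, as at the third, where the Dobermans gave 88.6, 24.8 and 156.

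**Figure D5:**
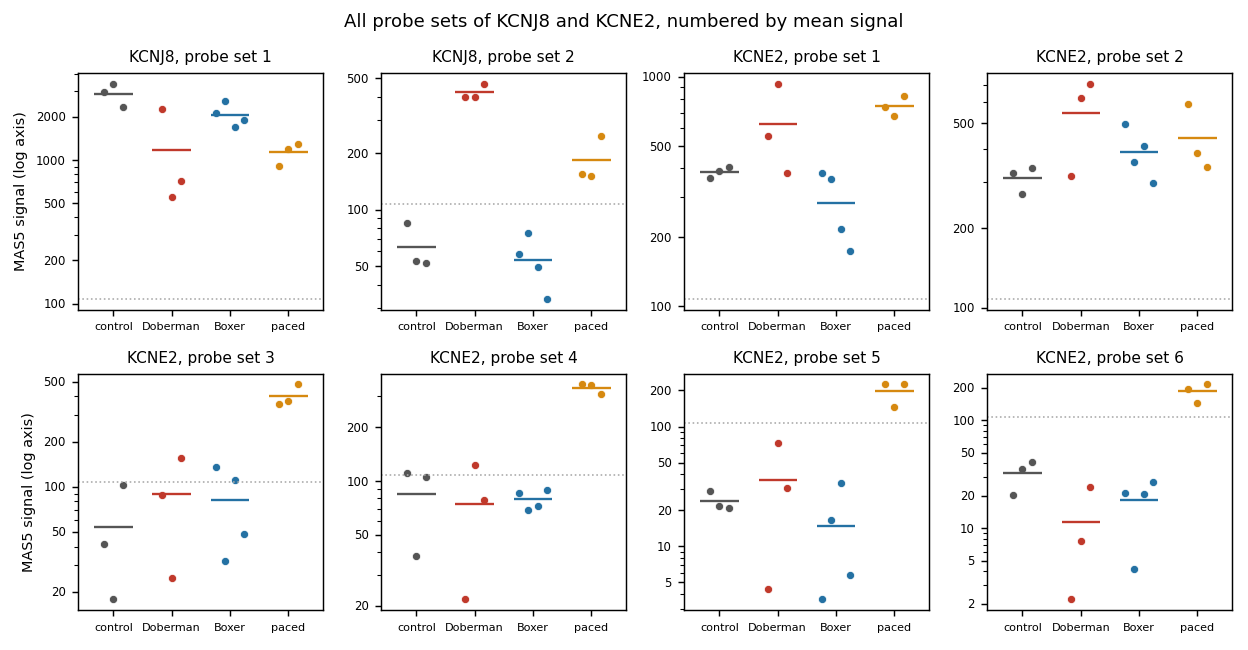
MAS5 signal (y axis, log scale that differs between panels) of each array at the 2 probe sets of KCNJ8 and the 6 of KCNE2, numbered by mean signal, with group means as short lines and the background level of about 108 as a dotted line. KCNJ8 is lower in Dobermans L and R and in the paced mongrels at its first probe set and higher in all Dobermans and paced mongrels at its second, and the paced mongrels lie above the controls at all 6 probe sets of KCNE2.

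KCNE3 gave 103, 356 and 703 in the Dobermans, 60.9, 175 and 30.1 in the controls, 139, 182, 148 and 142 in the Boxers and 202, 142 and 261 in the paced mongrels. The Doberman values followed the GAPDH ratio, lowest in K and highest in R, and K lay below control P4. The rise over the controls, 3.61-fold (1.85 ± 0.58 SE, adjusted p = 0.0346), was lost without P1, P9, L or R (1.26 to 2.56). With K alone it was 0.44 (adjusted p = 0.739), and the part of RNA quality in the rise was not tested. The other KCNE3 probe set gave 0.88 ± 0.36 (SE), adjusted p = 0.0814 and did not pass. Neither the paced change of 1.27 ± 0.58 nor the Boxer change of 0.94 ± 0.54 passed (adjusted p = 0.164 and 0.764).

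KCNJ8 forms, with a sulphonylurea receptor, the ATP-sensitive potassium channel of vascular smooth muscle and pericytes, and its 2 probe sets moved in opposite directions. At the brighter probe set the signals were 2961, 3383 and 2326 in the controls, 2265, 549 and 718 in the Dobermans, 2129, 2594, 1688 and 1886 in the Boxers and 915, 1201 and 1301 in the paced mongrels. K, with 2265, lay close to the lowest control and within the Boxers, while L and R were the lowest of all. The fall was to 0.342 of the control level in the Dobermans (-1.55 ± 0.39 SE, adjusted p = 0.0168) and to 0.398 in the paced mongrels (-1.33 ± 0.39 SE, adjusted p = 0.0407). K by itself differed from the controls by -0.33 (adjusted p = 0.55), and the Boxers by -0.48 ± 0.37 (adjusted p = 0.849). The Doberman call was lost without P1, P4, L or R (-2.16 to -1.15), and the paced call in each of the 6 fits without 1 array (-1.48 to -1.18). The Dobermans lay below the Boxers (log2 difference -1.07 ± 0.37 SE, adjusted p = 0.0366), lost without L, R or any 1 Boxer (-1.68 to -0.67), and with K alone this turned to 0.14 (adjusted p = 0.786). The difference from the paced mongrels, -0.22 ± 0.39 (SE), adjusted p = 0.71, became 1.00 (adjusted p = 0.0298) with K alone, which passed.

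At the dimmer probe set KCNJ8 gave 399.6, 396 and 467 in the Dobermans, 85.2, 53.3 and 52.3 in the controls, 58.1, 75.3, 49.3 and 33.5 in the Boxers and 156, 151 and 247 in the paced mongrels. The 3 Dobermans, K among them, lay above all other samples, the paced mongrels came next, and every control and Boxer value was under the background level. The rise over the controls was 5.57-fold in the Dobermans (2.48 ± 0.31 SE, adjusted p = 0.00185) and 2.5-fold in the paced mongrels (1.32 ± 0.31 SE, adjusted p = 0.0151). The Dobermans lay 6.37-fold above the Boxers (2.67 ± 0.29 SE, adjusted p = 0.000738) and 2.23-fold above the paced mongrels (1.15 ± 0.31 SE, adjusted p = 0.0166), and the Boxers lay below the paced mongrels (log2 difference -1.52 ± 0.29 SE, adjusted p = 0.004). The Doberman rise passed whichever array was left out (2.38 to 2.66), as did the difference from the Boxers (2.52 to 2.81) and that of the Boxers from the paced mongrels (-1.66 to -1.31). Without L and R the Doberman rise still passed, at 2.41 (adjusted p = 0.0204) over the controls and 2.60 (adjusted p = 0.0145) over the Boxers. It also passed with quantile normalization (2.12, adjusted p = 0.00303) and with the GAPDH ratio as a covariate (2.43, adjusted p = 0.034). The paced rise was lost without P4, P9 or LV04 (1.11 to 1.51) and with quantile normalization (0.79, adjusted p = 0.111), and the difference between Dobermans and paced mongrels without R, LV01 or LV02 (1.04 to 1.37) and with K alone (1.09, adjusted p = 0.116). Which transcripts the 2 probe sets match was not analysed here, so no direction is given for KCNJ8 as a gene.

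KCNJ2 and KCNJ12 are pores of the inward rectifier current that holds the resting potential. KCNJ2 gave 242, 244 and 142 in the controls, 129, 225 and 115 in the Dobermans, 113, 150.1, 139 and 79.4 in the Boxers and 234, 205 and 351 in the paced mongrels. The Boxers lay below the paced mongrels without overlap (-1.03 ± 0.31 SE, adjusted p = 0.0355). That call was lost without LV01, LV02, LV04 or Boxer 1, 3 or 4 (-1.18 to -0.82) and with quantile normalization (-0.50, adjusted p = 0.288). Against the controls the log2 change was -0.40 ± 0.33 in the Dobermans, -0.72 ± 0.31 in the Boxers and 0.31 ± 0.33 in the paced mongrels, and none passed (adjusted p = 0.361, 0.64 and 0.568). KCNJ12 gave 531, 405 and 432 in the controls and 540.4, 77.1 and 403 in the Dobermans, with L under the background level, K above the controls and R just below the lowest of them. It gave 491, 421, 421 and 416 in the Boxers and 506, 374 and 446 in the paced mongrels. It passed in no comparison, with changes of -0.75 ± 0.47, -0.05 ± 0.44 and -0.04 ± 0.47 in the Dobermans, Boxers and paced mongrels (adjusted p = 0.236, 0.994 and 0.963).

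The beta subunits of the large-conductance calcium-activated potassium channel both changed. KCNMB1, the smooth muscle form, gave 291, 291 and 374 in the controls, 454, 757 and 641 in the Dobermans, 326, 315, 252 and 398 in the Boxers and 669, 616 and 515 in the paced mongrels. All Doberman and paced values lay above all control and Boxer values. The log2 change was 0.90 ± 0.23 (SE), adjusted p = 0.0182 in the Dobermans and 0.88 ± 0.23 (SE), adjusted p = 0.0267 in the paced mongrels. The Doberman call was lost without P1, P4 or L (0.74 to 1.10), and the paced call without P1, P4, LV01 or LV02 (0.80 to 1.00). Quantile normalization gave 0.78 (adjusted p = 0.036) and 0.75 (adjusted p = 0.0555). The Dobermans lay above the Boxers by 0.89 ± 0.22 (SE), adjusted p = 0.0108, which held in every fit without 1 array (0.73 to 1.09), and the Boxers lay below the paced mongrels (log2 difference -0.87 ± 0.22 SE, adjusted p = 0.0156), lost without LV01 or LV02 (-0.97 to -0.76). K by itself gave 0.50 (adjusted p = 0.346) against the controls and 0.49 (adjusted p = 0.31) against the Boxers.

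Beside KCNMB1, 3 of 6 markers of smooth muscle cells and pericytes were higher in the Dobermans than in the controls. Of all tested genes 11.9% were. The summed signal of the 6 was 22140 to 32989 in the controls, 43162 to 67137 in the Dobermans, 31603 to 38477 in the Boxers and 23103 to 28376 in the paced mongrels. In L and R most of the gain was in DES, which heart muscle cells also express. DES gave 45939 in L, 44678 in R and 18716 in K, against 12766 to 15949 in the controls. Without DES the sums were 14953 to 24446 in the Dobermans and 9374 to 19307 in the controls, which overlapped. K gave the highest of these sums, above every control, and L gave the lowest Doberman sum, within the controls. In K more of the gain lay in the markers other than DES. MCAM and SYNPO2 were the other 2 that passed, ACTA2, MYH11 and TAGLN did not, and with K alone 1 of the 6 was higher. In the paced mongrels 0 were higher in limma, with 1 at an unadjusted p under 0.05, and that gene, MCAM, was lower (-1.92 ± 0.28, SE). The part of these cells in the changes of KCNMB1 and KCNJ8 was not tested.

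KCNMB4, the form known mainly from neurons, was the only channel gene that passed in opposite directions in the Dobermans and the paced mongrels at the probe set of highest signal. It gave 361, 546 and 405 in the Dobermans, 111, 249 and 179 in the controls, 184, 218, 154 and 183 in the Boxers and 94, 48.1 and 26.1 in the paced mongrels. All Dobermans lay above all other samples, and all paced mongrels lay below them and under the background level. The change from the controls was 2.39-fold in the Dobermans (1.26 ± 0.36 SE, adjusted p = 0.0255) and to 0.357 of the level in the paced mongrels (-1.49 ± 0.36 SE, adjusted p = 0.0177). The Dobermans lay 6.7-fold above the paced mongrels (2.74 ± 0.36 SE, adjusted p = 0.000402), in every fit without 1 array (2.41 to 3.11) and with K alone, 2.50 (adjusted p = 0.00833). The Boxers lay 2.99-fold above the paced mongrels (1.58 ± 0.33 SE, adjusted p = 0.00705), also in every such fit (1.25 to 1.94), and below the Dobermans (Doberman over Boxer 1.17 ± 0.33 SE, adjusted p = 0.0192), lost without L or Boxer 3 (1.00 to 1.29). The Doberman call against the controls was lost without P1, P9, L or R (0.97 to 1.51), and the paced call without P4, P9, LV02 or LV04 (-1.85 to -1.16). With K alone the Doberman change was 1.01 (adjusted p = 0.311) from the controls and 0.92 (adjusted p = 0.309) from the Boxers. Quantile normalization gave 0.97 (adjusted p = 0.0575) for the Dobermans and -1.94 (adjusted p = 0.0039) for the paced mongrels.

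Markers of nerve cells did not move one way in the Dobermans beside SCN10A, KCNA2 and KCNMB4, genes known from neurons. Of 3 tested Schwann cell and neuron markers, UCHL1 and SNAP25 were higher and NCAM1 lower in the Dobermans, and with K alone 1 was higher and 0 lower. Of all tested genes 11.9% were higher and 14.1% lower in the Dobermans than in the controls. S100B and TH were near background. The summed signal of the 5 measured markers was 1701 to 2922 in the controls, 5351 to 8226 in the Dobermans, 3402 to 6006 in the Boxers and 1692 to 1978 in the paced mongrels. These sums were carried by UCHL1: the other 4 markers summed to 595 to 898 in the controls, 643.5 to 1035 in the Dobermans, 564 to 682 in the Boxers and 808 to 1179.5 in the paced mongrels. SNAP25 was also higher in the paced mongrels (1.76 ± 0.49, SE). The part of nerve cells in the channel changes was not tested.

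Partner genes of the channels, such as gap junction proteins, pumps, calmodulins and regulators, were taken from a list of 82 genes, of which 33 had a tested probe set. In the Dobermans 1 was higher and 7 were lower than in the controls, beside 11.9% and 14.1% of all genes, and with K alone 0 were higher and 1 lower. In the paced mongrels 1 was higher and 1 lower, beside 5.19% and 4.05% of all genes, and in the Boxers 0 passed in limma, with 2 at an unadjusted p under 0.05. The largest changes belonged to GJA1, connexin 43, the main gap junction protein of the ventricle. Its signals were 5117, 6257 and 6441 in the controls, 1272, 439.9 and 946 in the Dobermans, 3693, 2557, 3703 and 3403 in the Boxers and 1259, 1306 and 882 in the paced mongrels, so all diseased and paced values lay below the controls. The log2 change was -2.84 ± 0.31 (SE), adjusted p = 0.00116 in the Dobermans and -2.37 ± 0.31 (SE), adjusted p = 0.00116 in the paced mongrels. Without L and R the Doberman fall was -2.20 ± 0.26 (SE), adjusted p = 0.00489. FGF13, a regulator of sodium channels, fell in the Dobermans (-1.29 ± 0.35 SE, adjusted p = 0.021) and did not pass in the paced mongrels (0.47 ± 0.35 SE, adjusted p = 0.403), and with K alone its change was -1.18 ± 0.50 (SE), adjusted p = 0.238. YWHAE (-2.65 ± 0.70 SE, adjusted p = 0.0194) fell and GEM (1.36 ± 0.36 SE, adjusted p = 0.02) rose in the Dobermans, and neither passed with K alone. SGK1, a kinase that raises channel density at the membrane, rose in the paced mongrels (1.72 ± 0.50 SE, adjusted p = 0.0407), and not with quantile normalization (1.61 ± 0.50 SE, adjusted p = 0.0602). Over the 33 genes the median log2 change was -0.177 in the Dobermans, -0.065 in the Boxers and -0.055 in the paced mongrels, against 0.608, -0.265 and 0.126 over the 20 channel genes. Between the breeds 3 partner genes were higher in the Dobermans and 11 lower, beside 16.8% and 17.4% of all genes, and with K alone 0 were higher and 1 lower. The Dobermans differed from the paced mongrels in 2 higher and 4 lower partner genes, beside 13.6% and 11.1% of all genes. The Boxers were higher than the paced mongrels in 2 and lower in 2, beside 5.84% and 8.38% of all genes.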

How the data were processed

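The authors deposited 1 MAS5 signal intensity per probe set and array, on a linear scale, with MAS5 named per the submitters' processing notes; its version and settings are not given in the sources used here. Arrays had been scaled: on the deposited values the 2% trimmed means were all close to 500. RNA was extracted with Trizol and a column clean-up, per the labels' protocols. Setting aside 77 control probe sets left 23836, of which 10549 had 1 symbol in the array annotation, 138 several and 13149 none; 0 symbols changed when updated through the gene identifiers. The constant 16 was added before taking log2. The 40th percentile of mean log2 (6.95) served as the filter, and the 14302 probe sets at or above it were tested in limma 3.58.1 (R 4.3.3) with 1 mean per group over all 13 arrays, 9 residual degrees of freedom, a trended prior variance, and Benjamini-Hochberg adjusted p at 0.05 in each of 6 comparisons. Folds are antilogs of these changes and understate those of low genes. The number of arrays limits the precision. The pipeline was tested on simulated data. No batch was named in the labels.

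The members, gene lists, tests and alternatives were chosen with earlier results of these data known. Named with values were all channel genes that passed in a comparison and tested genes known from cardiac electrophysiology. Other probe sets were named where they passed in the opposite direction or did not pass beside one that did. Members near background were named by family, and up to 4 genes per other list. KCNS3, the additional probe sets of KCNA5 and some list counts were described after their values were seen. The endothelial, fibroblast, macrophage, atrial and adipocyte marker lists gave, in the Dobermans against the controls, 0, 2, 1, 0 and 0 genes higher and 0, 0, 1, 0 and 1 lower, and in the paced mongrels 0, 1, 0, 0 and 0 higher and 2, 0, 0, 0 and 0 lower; 0 passed in the Boxers in limma, with 1, 2, 1, 2 and 2 at an unadjusted p under 0.05, and no erythroid marker was matched. Alternatives were median centring, quantile normalization, a pseudocount of 1 or 64, testing without the filter, fits of the compared groups alone, the GAPDH ratio as a covariate, array weights, the mean over the probe sets of a gene, leaving out each array, and leaving out Dobermans L and R together. Quantile normalization without a filter, and fits without a filter and without L and R, were added after the data were seen. Matplotlib 3.10.9 under Python 3.11.15 drew the plots. No sequences or genome coordinates were used.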

Additional observations from a re-analysis of the deposited data

Results flagged for a closer look

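Among the 4 Boxers, Boxer 1 stood far from the others in 2 of the 33 channel genes. For CACNA1S, the skeletal muscle calcium pore, near background over all arrays, its signal was 292.7 against 32.2 to 33.6 in the other Boxers. For KCNJ12, an inward rectifier, it was 490.5 against 416 to 421, a narrow range. Chance alone marks about 1 in 20 groups in this way, and 33 were examined.

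The test of the difference between the breeds passed in limma for 11 channel genes, each also a difference between their changes from the same controls. The Doberman minus Boxer log2 difference was 1.71 for KCNC1, 1.55 for KCND3, 1.29 for SCN10A, 1.17 for KCNMB4, 1.07 for KCNE2, 1.01 for KCNA2, 0.93 for CACNB3, 0.89 for KCNMB1, 0.81 for KCNH2, 0.65 for CACNA1C and -1.07 for KCNJ8. For KCNJ8 the other probe set gave 2.67 with the opposite sign.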

How the results depend on the processing

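Pseudocounts of 1 and 64 and testing without a filter kept all 41 called values of channel genes. Quantile normalization and the fits of the compared groups alone each kept 24, median centring 20, and array weights 32, with 0 reversed under each. The GAPDH ratio as a covariate kept 19. It ran from 1.08 to 3.62 in the Dobermans and goes largely with that group. The number of channel genes called in the Dobermans against the controls went from 8 to 5 with quantile normalization or array weights, 2 with median centring and 0 without L and R, with the compared groups alone or with the GAPDH covariate. In the paced mongrels against the controls it went from 8 to 5 with quantile normalization or median centring. It was 7 with the mean over the probe sets of a gene. It rose to 10 with the compared groups alone or the GAPDH covariate, and to 11 with array weights or without the filter. Calls over all 14302 probe sets rose from 1747 to 3576, 2935 and 4222 in the first 3 of these. Without the filter they were 4389 of 23836. In the Boxers the number went from 0 to 1 with array weights, beside 254 over all probe sets. Between the breeds it went from 11 to 7 with quantile normalization, 6 with median centring or the compared groups alone, and 0 without L and R or with the GAPDH covariate. Between Dobermans and paced mongrels it went from 5 to 3 without L and R or with the mean over the probe sets of a gene, 2 with array weights or the GAPDH covariate and 1 with the compared groups alone. The covariate left 6 channel genes with an unadjusted p under 0.05 in the Dobermans against the controls and 7 between the breeds. Over all 14302 probe sets it left 95 and 56 calls, where the main fit had 3644 and 5066. KCNJ8 turned: with the mean over its probe sets the Doberman change was 0.46 from the controls and 0.80 from the Boxers, and without L and R it was 0.14 from the Boxers. Leaving out each array in turn gave 1 to 12 channel genes called in the Dobermans against the controls. It gave 1 without L, beside 1192 of all 14302 probe sets, and 12 without K, beside 7349. In the Boxers it gave 0 to 0, beside 5 to 12, and in the paced mongrels 2 to 4, beside 811 to 1114. Between the breeds it gave 4 to 13, with 4 without L beside 2213 and 13 without K beside 8110. Between Dobermans and paced mongrels it gave 1 to 8. It was 1 without LV02 or LV04, beside 2138 and 2149, and 8 without K, beside 6183. Between Boxers and paced mongrels it gave 6 to 9, beside 1287 to 1862. The cause of these changes was not tested. No paired analysis was possible because no label pairs samples across the groups: names such as P1, LV01 and Boxer 1 share a digit, but no shared animal, litter or day is stated.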

Other observations

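Channel genes near background that passed when all probe sets were tested without the filter are given as values. In the paced mongrels against the controls these were CACNG3, a calcium channel gamma subunit known from neurons (1.93 ± 0.50 SE, adjusted p = 0.0165), and KCNQ3, a neuronal potassium pore (0.74 ± 0.21 SE, adjusted p = 0.0259). In that comparison 22.8% of all 9534 probe sets near background were called higher and 2.49% lower. CACNG3 gave 178, 48.9 and 215 in the paced mongrels and 17.8, 25.7 and 21 in the controls. KCNQ3 gave 14.9, 17 and 29 and 6.5, 6 and 4, all far under the background level. With quantile normalization neither passed, at 1.44 (adjusted p = 0.0869) and 0.37 (adjusted p = 0.212). SCN8A, a neuronal sodium pore, was higher in the Dobermans than in the paced mongrels (1.41 ± 0.37 SE, adjusted p = 0.014), with 70.1, 112 and 129.6 against 29.8, 22.4 and 32.7. With K alone the difference was 0.97. The controls gave 37.9, 80.8 and 62.5, all above the paced values. With quantile normalization and no filter SCN8A was lower in the paced mongrels than in the controls, at -1.22 (adjusted p = 0.0327). The Boxers lay below the paced mongrels in CACNG3 (-1.63 ± 0.47 SE, adjusted p = 0.0215), KCNQ3 (-0.80 ± 0.20 SE, adjusted p = 0.0101) and KCNB2, a delayed rectifier pore (-0.79 ± 0.26 SE, adjusted p = 0.0405). Without the filter, 1081 of all 23836 probe sets were called higher and 4639 lower in the Boxers than in the paced mongrels. For the Dobermans against the paced mongrels the counts were 2880 higher and 3094 lower.

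KCND3 also differed between probe sets. At the third, near background, it gave 109, 41 and 58.4 in the paced mongrels and 11, 13.8 and 9.4 in the controls, and it was higher there without the filter (1.56 ± 0.32 SE, adjusted p = 0.00497) and with quantile normalization (1.12, adjusted p = 0.0174), while the probe set of highest signal gave -0.14. The third KCNA5 probe set passed with quantile normalization too, at 1.26 (adjusted p = 0.0124). These were chosen after their values were seen.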
